A study of Mus musculus with 4 samples.

Results

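The ISG15 conjugation pathway was followed through 5 genes, *Isg15*, *Uba7*, *Ube2l6*, *Herc6* and *Usp18*, in RNA sequencing of LSK cells from mouse fetal liver. LSK cells are the Lin-Sca-1+c-Kit+ fraction in which hematopoietic stem cells and early progenitors are enriched. The members were chosen by gene name for their place in the pathway, and all 5 were found among the 39186 genes of the deposited table. The libraries came from 2 *Pich*-KO and 2 *Pich*-WT samples on the C57BL/6 strain. *Pich*-KO mice carry a small TALEN deletion at the start of exon 2 of *Pich* in every cell, so the deletion is not restricted to blood cells. According to the methods, fetal livers for sorting were taken at mid-gestation, with no treatment named. The labels do not say whether the samples of a group were separate embryos or pools. The p-values below therefore measure only the spread between these samples, which may be technical in *Pich*-KO. *Pich*-WT sample 1 had 2753 reads on Y-linked genes and *Pich*-WT sample 2 had 0, so these were not the same embryo or pool.

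ISG15 is a small modifier built of paired ubiquitin-like folds, and type I interferon is the best known inducer of its gene. Its carboxyl terminus is activated by the E1 enzyme UBA7, passed to the E2 enzyme UBE2L6 and joined to target proteins by a HERC ligase, which in the mouse is HERC6. USP18 removes ISG15 from its targets and also binds the interferon receptor subunit IFNAR2, where it dampens further signalling. The pathway thus holds a modifier, its writers and an eraser that is itself a feedback inhibitor.

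The genes lie apart from each other in the genome. On GRCm38, *Isg15* (ENSMUSG00000035692) is on chromosome 4 from 156199424 to 156200818 on the minus strand, and its coding transcript has 2 exons. *Uba7* (ENSMUSG00000032596) is on chromosome 9 from 107975505 to 107984060, and *Ube2l6* (ENSMUSG00000027078) is on chromosome 2 from 84798828 to 84810335, both on the plus strand. *Herc6* (ENSMUSG00000029798) and *Usp18* (ENSMUSG00000030107) share the plus strand of chromosome 6, from 57581000 to 57664632 and from 121245906 to 121270917.

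Promoter sequences are shown because 4 of these genes were higher together in *Pich*-KO cells and 1 was not, and because interferon acts on such genes through a DNA element, the ISRE, bound by STAT and IRF factors. Windows of 300 bases around RefSeq starts (GRCm38.p6) were held for *Isg15*, *Uba7*, *Ube2l6* and *Herc6*, and no entry was held for *Usp18*. They were searched on both strands for an ISRE core (GAAA, then NN, then GAAA) and for the shorter IRF core, AANNGAAA, which lies within it. The motifs were chosen after the sequences had been seen. An ISRE core was present in 3.44% and an IRF core in 23.9% of 32851 promoters of the same length. The stretches below read 5′ to 3′ on the strand of the gene and end at the base before the start, with motif matches in capitals.
Isg15, chr4:156200819-156200938: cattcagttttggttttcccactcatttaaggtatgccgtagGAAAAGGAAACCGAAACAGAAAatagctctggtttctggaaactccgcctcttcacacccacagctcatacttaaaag
Uba7, chr9:107975537-107975566: tagTTTCACTTttggtttcctgaaatcata
Ube2l6, chr2:84798708-84798827: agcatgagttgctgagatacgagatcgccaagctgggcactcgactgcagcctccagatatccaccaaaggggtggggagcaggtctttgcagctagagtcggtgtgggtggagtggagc
Herc6, chr6:57580872-57580991: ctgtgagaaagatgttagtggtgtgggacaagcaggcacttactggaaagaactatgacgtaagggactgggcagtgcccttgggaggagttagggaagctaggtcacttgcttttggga

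The *Isg15* promoter held 3 overlapping ISRE cores between bases -78 and -57 from its start, which is the run of capitals shown. It also held 4 IRF cores, of which 3 lie inside this run and 1 lies upstream of the printed stretch, on the opposite strand at -128 to -121. The *Uba7* promoter held 1 IRF core, on the opposite strand from -27 to -20, and no ISRE core. This stretch of *Uba7* overlaps the first exon of a longer GENCODE M21 transcript. Neither motif was found in the windows of *Ube2l6* and *Herc6*. These matches describe letters in a window and carry no measurement of binding.

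Values are the authors' normalized read counts, which are reads on each gene divided by 1 size factor per sample. Whole reads were recovered from them for 100% of the values, and total depth was 14703215 to 20933919 reads on genes. Neither pair of samples agreed within sampling noise (chi-square over degrees of freedom 14.7 in *Pich*-KO and 8.18 in *Pich*-WT). *Ercc6l*, the gene that encodes PICH, had normalized counts of 1142 and 1232 in *Pich*-KO and of 772 and 661 in *Pich*-WT (log2 fold change 0.73, adjusted p = 0.00887, limma). Its transcripts are still counted after a small deletion, so this level does not check the genotype. *Pich*-WT sample 2 had 0 reads on 4 Y-linked genes and the other samples had 1607 to 2848. On *Xist* it had 699 reads and the other samples had 4 to 13. By these reads *Pich*-WT sample 2 was female and the others male, so sex was not balanced between the groups. The LSK markers *Kit*, *Ly6a* and *Cd34* were well above 0 in every sample. Markers of macrophages and erythroid cells were counted in every sample too, and their levels are given beside the results. In both *Pich*-WT samples the summed count of the erythroid list, and that of the macrophage list, exceeded that of the 13 LSK markers (29414 and 31210). In *Pich*-KO the LSK sum (33097 and 21123) exceeded the macrophage sum in both samples and the erythroid sum in sample 1 only.

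*Pich*-KO was compared with *Pich*-WT to ask whether the ISG15 pathway was altered in these cells after loss of PICH. The modifier *Isg15*, the E1 gene *Uba7*, the ligase gene *Herc6* and the protease gene *Usp18* were higher in *Pich*-KO, by 2.64-fold to 20.6-fold in mean normalized count. The E2 gene *Ube2l6* was not separated between the groups. By limma on log2(normalized count + 1), fitted over 32428 genes, 4 of the 5 members rose and 0 fell at the threshold of 0.05 on the adjusted p. In the same fit 7.58% of all genes tested were called higher and 9.6% lower. Many of these genes have few reads. A fit of only the 13924 genes with at least 10 reads in every sample, the 5 members among them, called 2937 higher and 3135 lower. Those are larger shares than among all genes tested. Both *Pich*-KO samples were above both *Pich*-WT samples for 4 of the 5 members and for 28.9% of all genes tested. The opposite order was found for 0 members and 27.2% of genes, so that 56.1% of all genes tested had groups without overlap in either direction. A call with a log2 fold change of at least 1 was reached by 4 members and by 2.78% of genes.

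**Figure D1:**
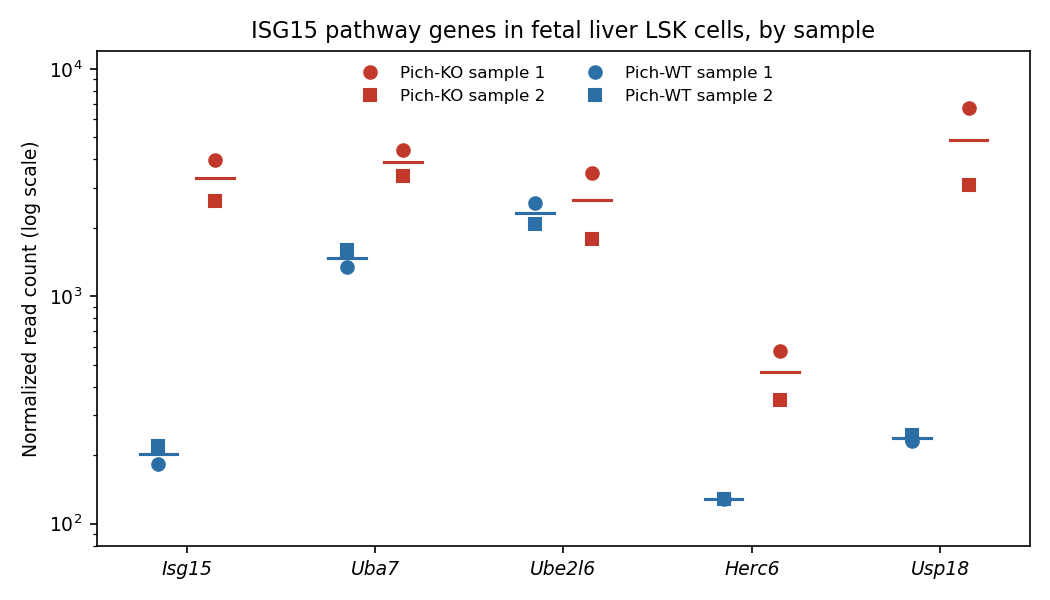
Normalized read count (log scale) of the 5 pathway genes in each of the 4 samples, with circles for sample 1, squares for sample 2 and a bar at the mean of each group. The *Pich*-KO samples lie above the *Pich*-WT samples for *Isg15*, *Uba7*, *Herc6* and *Usp18*, whereas for *Ube2l6* the 2 *Pich*-WT samples lie between the 2 *Pich*-KO samples.

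*Isg15*, which encodes the modifier itself, had normalized counts of 3963 and 2626 in *Pich*-KO samples 1 and 2, and of 183 and 220 in *Pich*-WT samples 1 and 2. Both *Pich*-KO samples were high, and the lower of them was far above either *Pich*-WT sample. The group means were 3294 ± 945 (SD, n = 2) and 201 ± 26.3 (SD, n = 2), a 16.4-fold difference. The log2 fold change was 4.0, with a standard error of 0.21, a 95% interval of 3.52 to 4.48 and an adjusted p of 3.7e-05 (limma, Benjamini-Hochberg). In reads, these levels rested on 3633 and 2310 in *Pich*-KO and on 234 and 220 in *Pich*-WT.

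*Uba7* encodes the E1 enzyme, which forms the first thioester with ISG15. Its normalized counts were 4405 and 3384 in *Pich*-KO against 1347 and 1599 in *Pich*-WT, and its groups did not overlap. These counts come from a long gene. Per kilobase of deposited gene length, *Uba7* was at 220 in *Pich*-WT, below *Isg15* at 266. The log2 fold change was 1.40, with a standard error of 0.15, a 95% interval of 1.05 to 1.74 and an adjusted p of 0.000631 (limma). This was the smallest change among the 4 members that rose.

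*Ube2l6* encodes the E2 enzyme, which takes ISG15 from UBA7 and hands it to the ligase. Its normalized counts were 3494 and 1785 in *Pich*-KO against 2570 and 2070 in *Pich*-WT. *Pich*-KO sample 1 was the highest and *Pich*-KO sample 2 the lowest of the 4, so the groups overlapped. The log2 fold change was 0.11, with a standard error of 0.27 and an adjusted p of 0.843 (limma). The 95% interval of -0.52 to 0.75 includes no change and still allows a moderate change in either direction, but it lies below the intervals of the other 4 members.

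*Herc6* encodes the HECT-type ligase that serves as the main ISG15 E3 in the mouse. Its normalized counts were 577 and 350 in *Pich*-KO against 128 and 128 in *Pich*-WT, the lowest of the 5 genes in every sample, and its groups did not overlap. The log2 fold change was 1.80, with a standard error of 0.26, a 95% interval of 1.21 to 2.40 and an adjusted p of 0.0023 (limma).

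*Usp18*, the ISG15 protease and inhibitor of interferon receptor signalling, had normalized counts of 6690 and 3071 in *Pich*-KO and of 230 and 245 in *Pich*-WT. The *Pich*-KO samples were both high but far apart from each other, while the *Pich*-WT samples lay close together. Its log2 fold change of 4.25, with a standard error of 0.31, was the largest of the 5 members (95% interval 3.53 to 4.97, adjusted p = 0.000113, limma). The intervals of *Usp18* and *Isg15* overlapped. A log2 fold change of at least 4 with a call was reached by 2 of the 5 members, *Isg15* and *Usp18*, and by 0.0278% of all genes tested. The cut of 4 was not among the planned settings and lies at the value of *Isg15* itself, so this share is only a description. With TMM scaling *Isg15* was at 3.995, below the cut.

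These calls rest on a variance shared across genes. For a single gene the exact permutation test, two-sided and with 2 samples in each group, cannot go below p = 0.333. When every gene was given 1 prior variance, without a trend on the mean, 0 members and 0 genes in all passed, although 7377 genes had an unadjusted p under 0.05 and edgeR with TMM called 3097 higher and 3436 lower, and the adjusted p of the 4 higher members was 0.0852 to 0.119 (limma).

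The amounts of the pathway transcripts relative to each other were compared as normalized counts per kilobase of deposited gene length. In both *Pich*-WT samples the order from high to low was *Ube2l6*, *Isg15*, *Uba7*, *Usp18* and *Herc6*. In both *Pich*-KO samples it was *Isg15*, *Usp18*, *Ube2l6*, *Uba7* and *Herc6*. The E2 transcript thus led the set in *Pich*-WT, at 1162 ± 177 normalized counts per kilobase (SD, n = 2), and the modifier led it in *Pich*-KO, at 4357 ± 1250 (SD, n = 2). *Isg15* and *Uba7* were near each other in *Pich*-WT, at 266 ± 34.7 and 220 ± 26.7 normalized counts per kilobase, a gap smaller than their summed SDs. *Usp18* and *Ube2l6* overlapped in *Pich*-KO, at 1749 ± 917 and 1322 ± 605. With coding length in place of deposited length, both of these neighbouring pairs changed places, while the first and last places stayed as they were.

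**Figure D2:**
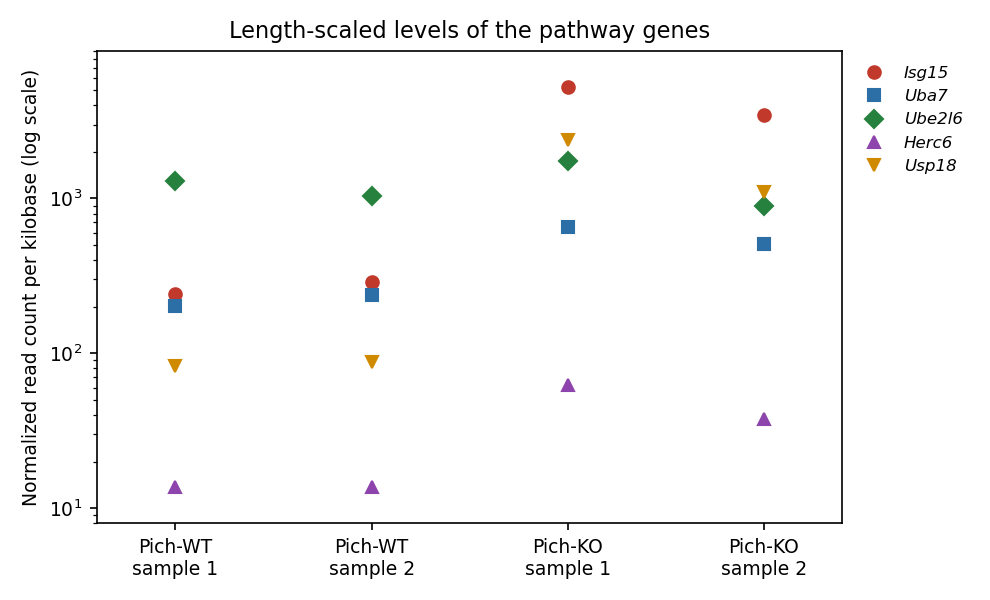
Normalized read count per kilobase of deposited gene length (log scale) for the 5 pathway genes in each of the 4 samples, 1 symbol per gene. *Ube2l6* is the highest symbol in both *Pich*-WT samples and *Isg15* is the highest in both *Pich*-KO samples, while *Herc6* is the lowest in all 4.

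Of the length-scaled sum over the 5 genes, *Isg15* made up 13.2% and 17.4% in *Pich*-WT samples 1 and 2 and 51.8% and 57.8% in *Pich*-KO samples 1 and 2. *Ube2l6* made up 70.5% and 62.2% in *Pich*-WT and 17.3% and 14.9% in *Pich*-KO. The E2 transcript thus had the largest share in both *Pich*-WT samples and the modifier transcript in both *Pich*-KO samples. The ratio of *Isg15* to *Ube2l6* was 0.188 and 0.281 in *Pich*-WT and 2.99 and 3.88 in *Pich*-KO, a difference of 3.89 in log2 ratio with no overlap between groups (exact two-sided permutation p = 0.333, the smallest this design allows). These shares and ratios depend on the length used. With coding length, chosen after seeing the data, *Isg15* made up 34.8% and 40.6% and *Ube2l6* 32.3% and 29.1% in *Pich*-KO samples 1 and 2, which leaves the modifier only slightly ahead in sample 1. In *Pich*-WT *Isg15* then made up 5.66% and 7.89% and *Ube2l6* 83.7% and 78.1%. The ratio of *Isg15* to *Ube2l6* became 0.0676 and 0.101 in *Pich*-WT and 1.08 and 1.40 in *Pich*-KO, while its log2 difference between groups is the same by construction.

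The eraser and the other writers were set against the modifier in the same way. The ratio of *Usp18* to *Isg15*, per kilobase, was 0.34 and 0.302 in *Pich*-WT and 0.458 and 0.317 in *Pich*-KO, and these groups overlapped. The ratio of *Uba7* to *Isg15* was 0.832 and 0.821 in *Pich*-WT and 0.126 and 0.146 in *Pich*-KO. The ratio of *Herc6* to *Isg15* was 0.057 and 0.0473 in *Pich*-WT and 0.0118 and 0.0108 in *Pich*-KO. Both of the latter ratios were lower in *Pich*-KO without overlap between groups (exact two-sided permutation p = 0.333 each). With coding length the ratio of *Uba7* to *Isg15* was 1.21 and 1.20 in *Pich*-WT, so that the E1 transcript was then above the modifier there, and 0.183 and 0.212 in *Pich*-KO. That of *Herc6* to *Isg15* was 0.113 and 0.0934 in *Pich*-WT and 0.0234 and 0.0214 in *Pich*-KO, and that of *Usp18* to *Isg15* was 0.55 and 0.487 in *Pich*-WT and 0.739 and 0.512 in *Pich*-KO.

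All 5 members, and 48% of all genes tested, had a higher level in *Pich*-KO sample 1 than in *Pich*-KO sample 2. The members differed by unequal amounts. The ratio of normalized counts, sample 1 over sample 2, was 2.18 for *Usp18*, 1.96 for *Ube2l6*, 1.65 for *Herc6*, 1.51 for *Isg15* and 1.3 for *Uba7*. Exact 95% intervals, which cover counting error only, ran from 2.08 to 2.28 for *Usp18* and from 1.24 to 1.37 for *Uba7*, so each of these differs from 1 by more than counting allows. Among 10544 genes with a mean of at least 100 normalized counts, 52.2% were higher in sample 1 and 14.1% by at least 1.3-fold. In *Pich*-WT the same ratio lay between 0.831 for *Isg15* and 1.24 for *Ube2l6*.

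Markers of cell types also differed between the *Pich*-KO samples. The summed normalized count of 13 LSK markers was 33097 in sample 1 and 21123 in sample 2. That of 8 neutrophil markers, of which *Mpo* made up most, was 63591 and 118083. *Kit* had 4447 and 2772 normalized counts. *S100a8*, another gene of the neutrophil list, had 556 and 3918, a larger relative difference than in the sum. Their part in the members' difference between these samples was not tested. In bulk samples, fewer cells of a type and less RNA per cell cannot be told apart.

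*Pich*-KO sample 1 was the higher *Pich*-KO sample for every member, so leaving it out had to lower each of them. The log2 fold changes were then 3.70 for *Isg15*, 3.69 for *Usp18*, 1.44 for *Herc6* and 1.20 for *Uba7*, and *Ube2l6* turned to -0.37. In that fit, where the lone *Pich*-KO sample is assumed to vary like the *Pich*-WT samples, *Isg15* and *Usp18* still passed (adjusted p = 0.0393 for both, limma), while *Uba7* and *Herc6* did not (0.0592 and 0.0509). Without *Pich*-KO sample 2, *Ube2l6* was at 0.60 (limma, adjusted p = 0.207), and without *Pich*-WT sample 2, which had no Y-linked reads, it was -0.04. No member passed in the limma fits without *Pich*-KO sample 2 or without either *Pich*-WT sample, although *Isg15*, *Uba7*, *Herc6* and *Usp18* each had an unadjusted p under 0.05 there.

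**Figure D3:**
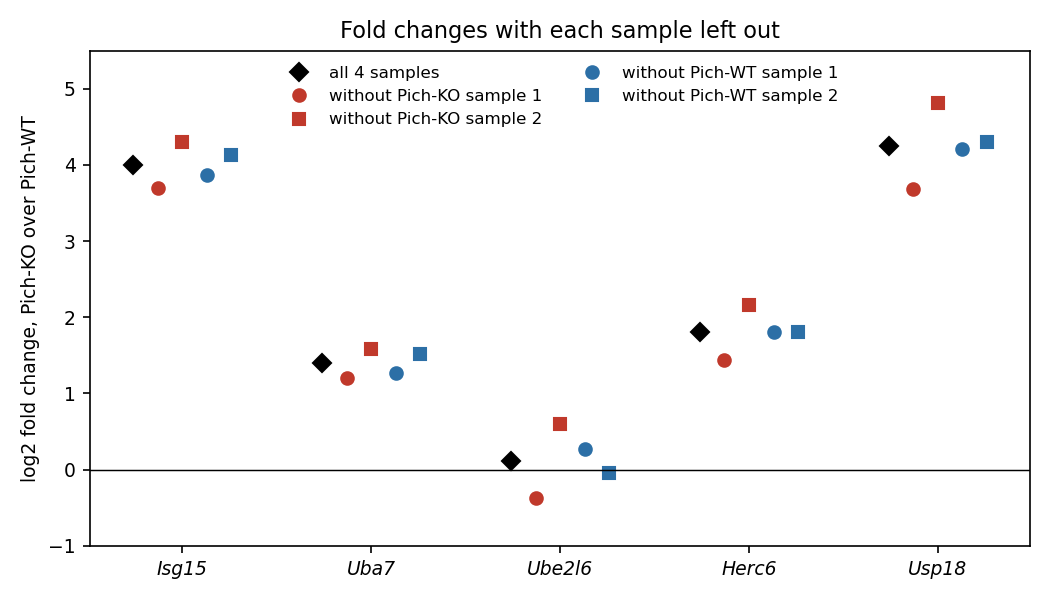
log2 fold change, *Pich*-KO over *Pich*-WT, of each pathway gene with all 4 samples (black diamonds) and with each sample left out in turn (coloured symbols, named by the sample left out). *Isg15*, *Uba7*, *Herc6* and *Usp18* stay above 0 in all fits shown, and *Ube2l6* lies on either side of 0. Both *Pich*-KO samples were above both *Pich*-WT samples for those 4 genes, so leaving out any single sample could not change their sign.

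Markers of other fetal liver cells moved between the groups. All 12 macrophage markers were lower in *Pich*-KO at an adjusted p of 0.05 (limma), with a summed normalized count of 7265 to 8430 in *Pich*-KO and of 56525 to 58084 in *Pich*-WT, and *Vsig4* had 2 and 0 reads in *Pich*-KO. All 6 endothelial markers were lower too, at 1449 to 2390 against 19049 to 28294, as were 8 of 10 erythroid markers, at 29123 to 32147 against 121111 to 159500. Of 8 neutrophil markers *Mpo* and *Prtn3* were higher in *Pich*-KO and 6 were not called, with a median log2 fold change of 0.07. Their sum, of which *Mpo* made up most, was 63591 to 118083 against 16446 to 19054. Of 5 tested markers of plasmacytoid dendritic cells, which are strong interferon producers, *Cox6a2* was higher and 4 were not called, with a median log2 fold change of -1.03, and the list summed to 281 to 645 against 463 to 642. Lower were 5 of 8 hepatocyte markers, at 2583 to 3057 against 4194 to 4741, and 2 of 6 lymphoid markers, at 656 to 1187 against 1259 to 1307. Of 13 LSK markers 1 was higher, 5 were lower and 7 were not called, with a median log2 fold change of -0.57. The stem cell genes *Procr*, *Hlf*, *Mecom*, *Slamf1* and *Gata2* fell, with log2 fold changes of -2.88, -2.37, -2.10, -0.90 and -0.58. The gene that rose was *Ly6a*, which encodes Sca-1, at 1.74 on the log2 scale (adjusted p = 0.000167, limma), and *Kit* had a value of 0.54 that did not pass (adjusted p = 0.114). The part of these markers in the level of *Ube2l6* or of any other member was not tested.

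The members were set beside the other genes of their enzyme class, 102 relatives of which 101 were tested. By the same limma test 25 of these rose and 11 fell, with a median log2 fold change of 0.13, against 0.02 for all genes tested. Of all genes tested 7.58% were called higher and 9.6% lower. In the fit of 13924 genes with at least 10 reads in every sample, 2937 were higher and 3135 lower. These background values apply to the counts of each class below. The highest value among the relatives was 1.3, for *Herc1*. The 4 members that rose had values of 1.40 to 4.25. Differences between a member and its relatives were not tested.

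**Figure D4:**
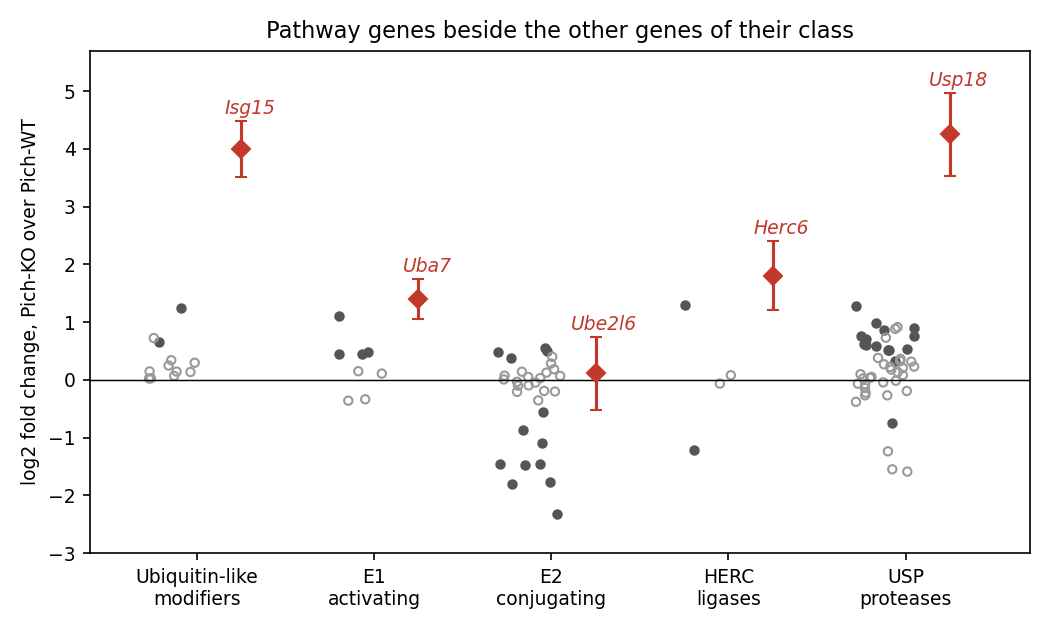
log2 fold change, *Pich*-KO over *Pich*-WT, of the 5 pathway genes (red diamonds, bars are 95% intervals from limma) beside the other genes of their class (points, filled where the adjusted p was under 0.05). *Isg15*, *Uba7*, *Herc6* and *Usp18* lie above the points of their class and *Ube2l6* lies among the other E2 genes.

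*Ubb*, which encodes ubiquitin, the modifier that ISG15 resembles, was not called. It had 31287 and 32340 normalized counts in *Pich*-KO against 30369 and 27543 in *Pich*-WT (log2 fold change 0.14, 95% interval -0.02 to 0.29). Among the 12 tested modifiers, *Rps27a* and *Fau* were higher, by log2 fold changes of 1.25 and 0.66. *Rps27a* encodes ubiquitin and *Fau* a ubiquitin-like part, each fused to a ribosomal protein. *Fau* lost its call without a filter on the mean (adjusted p = 0.0561, limma).

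Among the 8 other E1-class genes, *Uba6*, which activates ubiquitin, rose most, from 227 ± 21.4 to 489 ± 0.92 normalized counts (SD, n = 2; log2 fold change 1.11, adjusted p = 0.00347, limma). *Sae1* and *Uba2*, the subunits of the SUMO E1, and *Uba3* of the NEDD8 E1 rose by 0.45 to 0.49, although *Uba3* did not pass with TMM scaling, with a pseudocount of 0.1 or without a filter (adjusted p = 0.0506, 0.0516 and 0.0636, limma). *Uba1*, the main ubiquitin E1, had a log2 fold change of 0.11 (95% interval -0.08 to 0.30).

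The E2 class, to which *Ube2l6* belongs, was the one class with more genes lower than higher. Of 31 other E2 genes 4 were higher and 9 lower (limma), with a median log2 fold change of -0.05. *Ube2l3*, the closest relative of *Ube2l6* and a ubiquitin E2, had 3934 and 3706 normalized counts in *Pich*-KO against 4651 and 4082 in *Pich*-WT (log2 fold change -0.19, 95% interval -0.42 to 0.04). The 7 E2 genes that fell by at least 1 on the log2 scale were *Ube2h* (-2.32), *Ube2m* (-1.80), *Ube2q2* (-1.78), *Ube2r2* (-1.47), *Ube2o* (-1.46), *Ube2e2* (-1.45) and *Ube2q1* (-1.10). *Ube2e2* and *Ube2o* did not pass without a filter on the mean (adjusted p = 0.0534 and 0.106, limma), nor *Ube2o* with a pseudocount of 0.1 (0.0761). UBE2O and UBE2H are known from maturing red cells, and the erythroid markers were lower in the same samples, whose part in the E2 values was not tested.

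The HERC class moved both ways. The large HERC gene *Herc1* rose from 374 ± 37.6 to 920 ± 28.2 normalized counts (SD, n = 2; log2 fold change 1.3, adjusted p = 0.000876, limma). *Herc3*, a small HERC gene like *Herc6*, fell from 202 ± 0.997 to 87.6 ± 22.6 (log2 fold change -1.22, adjusted p = 0.0139, limma). *Herc4* had a log2 fold change of 0.08 (95% interval -0.22 to 0.39). Of 46 other USP protease genes 14 were higher and 1 lower. *Usp45* had the highest value, 1.28 (adjusted p = 0.00268, limma), and *Usp35* the lowest, -1.59, which did not pass (adjusted p = 0.0675, limma).

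A further list of 33 genes tied to ISG15 by their products was examined by role. In the limma fit 12 of them rose, 8 fell and 13 were not called, and their median log2 fold change was 0.08. The background was 7.58% higher and 9.6% lower among all genes tested. Among 13924 genes with at least 10 reads in every sample it was 2937 higher and 3135 lower.

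Among ISG15 ligases other than HERC6, the genes moved apart. *Trim25*, which encodes a RING ligase of RIG-I and of ISG15, had normalized counts of 2861 and 2537 in *Pich*-KO and of 650 and 742 in *Pich*-WT. Both *Pich*-KO samples were high, and the log2 fold change was 1.95 (standard error 0.13, adjusted p = 8.0e-05, limma). *Arih1*, the gene of a RING-in-between-RING ligase, fell from 992 ± 80.5 to 505 ± 52.9 (SD, n = 2; log2 fold change -0.98, adjusted p = 0.0033, limma).

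Of 6 proteases that remove ISG15 as well as other modifiers, 2 were higher. *Usp14*, a proteasome-bound protease, rose from 3117 ± 114 to 4780 ± 76.7 normalized counts (SD, n = 2; log2 fold change 0.62, adjusted p = 0.00244, limma). *Usp5* rose by 0.32 on the log2 scale (adjusted p = 0.035, limma, but 0.0643 with DESeq2 and 0.0603 without a filter). *Usp2*, *Usp13*, *Usp16* and *Usp21* were not called, with log2 fold changes of -0.19 to 0.36.

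The genes through which USP18 acts on the interferon receptor did not rise together. *Ifnar2*, the receptor subunit that USP18 binds, had 2577 and 2352 normalized counts in *Pich*-KO against 3085 and 2864 in *Pich*-WT. Its log2 fold change of -0.27 did not pass (adjusted p = 0.127, limma), although both *Pich*-KO samples were below both *Pich*-WT samples. *Ifnar1*, the partner subunit, fell by 0.56 on the log2 scale (adjusted p = 0.0185, limma). *Stat2*, which tethers USP18 to the receptor and is also part of ISGF3, rose from 627 ± 0.16 to 1327 ± 239 (SD, n = 2; log2 fold change 1.07, adjusted p = 0.00254, limma). *Skp2*, of the ubiquitin ligase that turns over USP18, had a log2 fold change of 0.03 that was not called.

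Of 5 transcription factor genes known to act on members of the pathway, 3 were higher, among them *Irf7* and *Irf9*. *Irf7* had normalized counts of 9487 and 4981 in *Pich*-KO against 1356 and 1615 in *Pich*-WT (log2 fold change 2.22, adjusted p = 0.000916, limma). Like *Usp18*, it had its highest level in *Pich*-KO sample 1, with a ratio to sample 2 of 1.90 (exact 95% interval 1.84 to 1.98, counting error only). *Irf9*, a subunit of ISGF3, rose by 0.75 on the log2 scale (adjusted p = 0.00433, limma). It went the other way within *Pich*-KO, with a ratio of 0.877 for sample 1 over sample 2 (exact 95% interval 0.818 to 0.942). *Irf1* and *Irf3* were not called, at 0.08 and 0.19.

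The genes of LFA-1, the integrin through which extracellular ISG15 acts on lymphoid cells, were both lower. *Itgb2* fell from 3046 ± 38.9 to 1792 ± 136 normalized counts (SD, n = 2; log2 fold change -0.77, adjusted p = 0.00194, limma). *Itgal* fell by 0.81 on the log2 scale (adjusted p = 0.0291, limma). It did not pass with the smaller pseudocount of 0.1 (0.073) or when no filter was set (0.103). *Sqstm1*, an autophagy receptor that binds ISG15, fell by 0.50 on the log2 scale (adjusted p = 0.0061, limma), and *Hdac6* was not called, at -0.05.

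Among 12 genes of known ISG15 substrates 5 were higher and 3 lower (limma). The antiviral effectors *Ifit1*, *Mx1* and *Eif2ak2* (PKR) had log2 fold changes of 3.80, 3.23 and 1.86. *Mx1* had 1698 and 1355 normalized counts in *Pich*-KO against 137 and 190 in *Pich*-WT, and its groups were far apart. *Jak1* and *Mapk3* were lower and *Pcna* was higher, but none of the 3 passed without a filter on the mean (adjusted p = 0.0603, 0.0633 and 0.0881, limma).

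The neighbours of each member on its chromosome were examined because position was not used to choose the set. Beside *Isg15* both nearest tested protein-coding genes were higher in *Pich*-KO. *Agrn*, which encodes agrin and lies 1936 bases from *Isg15*, had normalized counts of 709 and 419 in *Pich*-KO and of 197 and 185 in *Pich*-WT (log2 fold change 1.51, adjusted p = 0.00502, limma). *AW011738*, which begins 2486 bases from *Isg15* on its other side, had 133 and 113 in *Pich*-KO against 28.9 and 33 in *Pich*-WT (log2 fold change 1.95, adjusted p = 0.00292, limma). Both genes were higher in *Pich*-KO, as *Isg15* was, and in *Pich*-WT the counts of *Agrn* were close to those of *Isg15*. These counts are not scaled by gene length, so close counts do not mean close transcript levels.

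Beside *Usp18*, *Tuba8* rose (log2 fold change 1.87, adjusted p = 0.0023, limma) and *Slc6a13* did not pass, at 0.27. Beside *Uba7*, *Traip* rose by 0.65 (adjusted p = 0.0151, limma), and *Inka1*, which lies 163 bases from *Uba7*, stood at 0.13 (adjusted p = 0.554). The neighbours of *Herc6*, *Ppm1k* and *Pyurf*, and those of *Ube2l6*, *Serping1* and *Smtnl1*, were not called. *Gm20661* overlaps the end of *Uba7* and *Gm44148* overlaps *Usp18* from the opposite strand, with at most 8 reads in any sample. An *Isg15* pseudogene on chromosome 17, *AC151275.1*, had 1 to 5 reads per sample. Since the counting is not stated to use strand, reads of overlapping genes cannot be told apart. The small counts of *Gm20661* and *Gm44148* therefore do not limit how many of their reads were counted for *Uba7* and *Usp18*.

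Genes with the most similar profile over the 4 samples were sought for each member among 11794 genes with a mean of at least 50 normalized counts, by the distance between log2 values centred on their own mean. Over only 4 samples such likeness is a description. Those nearest to *Isg15* were *Ifi206*, *Ifi213* and *Ifit1*, at distances of 0.32 to 0.39. Those nearest to *Usp18* were *Ifi44*, at 0.13, *Isg15*, at 0.47, and *Ifit1*, at 0.48. *Ifi44* had 2061 and 856 normalized counts in *Pich*-KO against 71.1 and 71 in *Pich*-WT, so it shared with *Usp18* the gap between the *Pich*-KO samples.

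Nearest to *Herc6* were *Ifih1*, the gene of the RNA sensor MDA5, at a distance of 0.07, *Top2b* and *Abca2*. Nearest to *Uba7* were *Zfp516*, *H2-T22* and *Cd33*, at 0.03 to 0.08. Nearest to *Ube2l6* were *Plek*, at 0.05, *Slc2a3* and *Slc22a3*. *Plek*, which encodes pleckstrin of platelets and leukocytes, had 2887 and 1496 normalized counts in *Pich*-KO against 2223 and 1776 in *Pich*-WT, with the *Pich*-WT samples again between the *Pich*-KO samples.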

How the data were processed

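RNA of fetal liver LSK cells was sequenced after preparation with the Illumina TruSeq RNA kit (2 samples of each genotype). The authors deposited 1 table in which the signal of each gene is its read count divided by a size factor per sample. The counter and the annotation are not given in the sources used here, and the submitters' processing notes name Bowtie 0.12.2, mm8 and mm9. Coordinates are on GRCm38, since 97.8% of 39131 genes matched GENCODE M21. Deposited lengths equalled summed exons for 97.4% of genes. The authors' fold changes, p-values and means were not used.

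Groups were compared with limma 3.58.1 (R 4.3.3) on log2(value + 1) for genes with a mean of at least 1, a prior variance with a trend on the mean and Benjamini-Hochberg adjustment. This scale understates changes of low genes. The code was also run on simulated counts with known changes, drawn with a spread estimated from these same samples. The simulation held no difference in sex or cell types, so it checks the code and not the calls reported here. Alternatives included edgeR 4.0.16 and DESeq2 1.42.0 on recovered reads. Members and lists were chosen with earlier results of these data known. Named genes were the members, role extremes, closest class relatives and those past a log2 change of 1, neighbours and the 3 nearest profiles. *Rps27a*, *Fau*, the E1 genes, *Usp2*, *Usp5*, *Usp13*, *Usp16*, *Usp21* and remaining pathway genes were named after their values were seen. Values of a few listed genes are not reported here.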

Additional observations from a re-analysis of the deposited data

How the results depend on the processing

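Under 8 alternatives that keep all samples (a pseudocount of 0.1, no filter, at least 10 reads in every sample, TMM scaling, a replicate block, DESeq2 and edgeR with TMM or upper-quartile scaling) each member kept its direction and its side of the threshold. Log2 fold changes were 3.995 to 4.06 for *Isg15*, 1.39 to 1.43 for *Uba7*, 0.11 to 0.22 for *Ube2l6*, 1.80 to 1.88 for *Herc6* and 4.24 to 4.39 for *Usp18*. With 1 prior variance for all genes, at unchanged log2 fold changes of 4.0, 1.40, 1.80 and 4.25, *Isg15*, *Uba7*, *Herc6* and *Usp18* did not pass (adjusted p = 0.0852, 0.119, 0.118 and 0.0852, limma), and 0 members, 0 other pathway genes and 0 genes in all were called, with 7377 genes at an unadjusted p under 0.05. Without a filter on the mean 5 other pathway genes were lower in place of 8. The cause was not tested.

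Leaving out each sample in turn gave log2 fold changes of 3.70 to 4.30 for *Isg15*, 1.20 to 1.59 for *Uba7*, -0.37 to 0.60 for *Ube2l6*, 1.44 to 2.16 for *Herc6* and 3.69 to 4.81 for *Usp18*. *Ube2l6* reversed without *Pich*-KO sample 1, at -0.37, and without *Pich*-WT sample 2, at -0.04. Members called higher then numbered 0 to 2, other pathway genes 0 to 6 higher and 0 to 1 lower, and all genes 0 to 548 higher and 0 to 1193 lower (limma), on fewer samples and with 5716 to 8654 genes at an unadjusted p under 0.05. Same-numbered samples share a number, and the labels do not say whether they also shared a batch. The correlation of deviations between same-numbered samples was 0.0117 over 11794 genes, which are not independent. With the replicate block 4 members were higher, *Ube2l6* stayed at 0.11 (adjusted p = 0.643, limma) and 3122 genes were higher and 3874 lower, against 2459 and 3113. The members had 128 to 6134 reads in each sample.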
